A study of Mus musculus with 6 samples.

Results

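Signalling by transforming growth factor beta (TGF-beta), bone morphogenetic proteins (BMPs) and activins was described through a list of 43 genes that encode ligands, receptors, extracellular antagonists, Smad proteins and the Id transcription regulators. A gene was measured where the platform annotation gave a probe set (a group of array probes summarised as 1 value) to that gene alone, and its brightest probe set stood for it. This gave 41 of the 43 genes, with 88 probe sets, out of 18193 genes and 45037 probe sets on the array. Bmp3 and Gdf15 were not analysed here, and an Acvr2a probe set that also names another gene was left out by the same rule.

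The tissue was the oviduct of mice of the MF1 strain. Wt1 ko/+ females, which carry 1 disrupted allele of the zinc finger transcription factor Wt1 and are called heterozygous here, gave 3 samples, and Wt1 +/+ females, called wild type, gave 3. Females of both genotypes were bred to wild-type males, and tissue was collected at embryonic day 2.5, when embryos travel through the tube. The comparison asks which oviductal transcripts differ when 1 Wt1 allele is lost. Nothing in the labels says whether a sample was 1 animal or a pool, so a p-value here covers only the scatter among the 6 samples, part or all of which may be technical. The labels name no cell type to which the disruption is confined.

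TGF-beta family ligands are secreted dimers that bring together type II and type I receptor kinases on the target cell. TGF-beta and activin receptors then activate Smad2 and Smad3, BMP receptors activate Smad1 and Smad5, and both kinds of Smad enter the nucleus with Smad4, whereas Smad6 and Smad7 inhibit the cascade. Noggin, chordin, gremlin and follistatin proteins trap ligands outside the cell, and Id1, Id2 and Id3 are classical genes induced by BMPs. In the female tract the family is best known for anti-Müllerian hormone, which removes the embryonic precursor of the oviduct in males, and for the oocyte ligands Gdf9 and Bmp15.

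All 5 secretory, 5 smooth muscle and 6 stromal markers of the oviduct had means above that of the middle probe set, and the log2 intensity of the secretory product Ovgp1 averaged 14.33 in heterozygous and 14.27 in wild-type samples. The signal of Wt1 itself was 11.12, 11.27 and 11.79 in heterozygous replicates 1, 2 and 3, against 12.17, 12.06 and 11.67 in wild-type replicates 1, 2 and 3. The array labelled heterozygous replicate 3 lay above wild-type replicate 3, so the groups overlapped, and the difference of -0.57 (standard error 0.23) did not pass (limma adjusted p = 0.771). Wild-type replicate 3 stood apart in RNA quality, with a 3' to 5' ratio of the Actb control of 5.90 against 1.67 to 2.49 in the 5 other arrays, so values without it are given below. Log2 differences are heterozygous minus wild type throughout.

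No gene of the family passed the threshold (adjusted p under 0.05 over all genes, limma), against 0.0165% of all 18193 genes. At an unadjusted p under 0.05, 1 of the 41 genes was higher in heterozygous oviducts, where 2.67% of all genes were, and 3 were lower, where 3.77% of all genes were. The BMP antagonist Nog was the higher one, and the ligands Tgfb3 and Bmp6 and the activin receptor Acvr2a were the lower ones. The heterozygous values all lay above the wild-type values in 4 genes, against 5% of all genes, and all below them in 3, against 6.77%. In all, 22 of the 41 were above 0, against 45% of all genes. As shares of the 41 genes the counts of higher and lower ones are 2.44% and 7.32% at an unadjusted p under 0.05, and 9.76% and 7.32% without overlap, each resting on 1 to 4 genes. The median difference was 0.02 over the 41 genes and -0.03 over all genes. The arrays hold tissue RNA, so fewer cells of a type and less RNA per cell cannot be told apart.

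**Figure D1:**
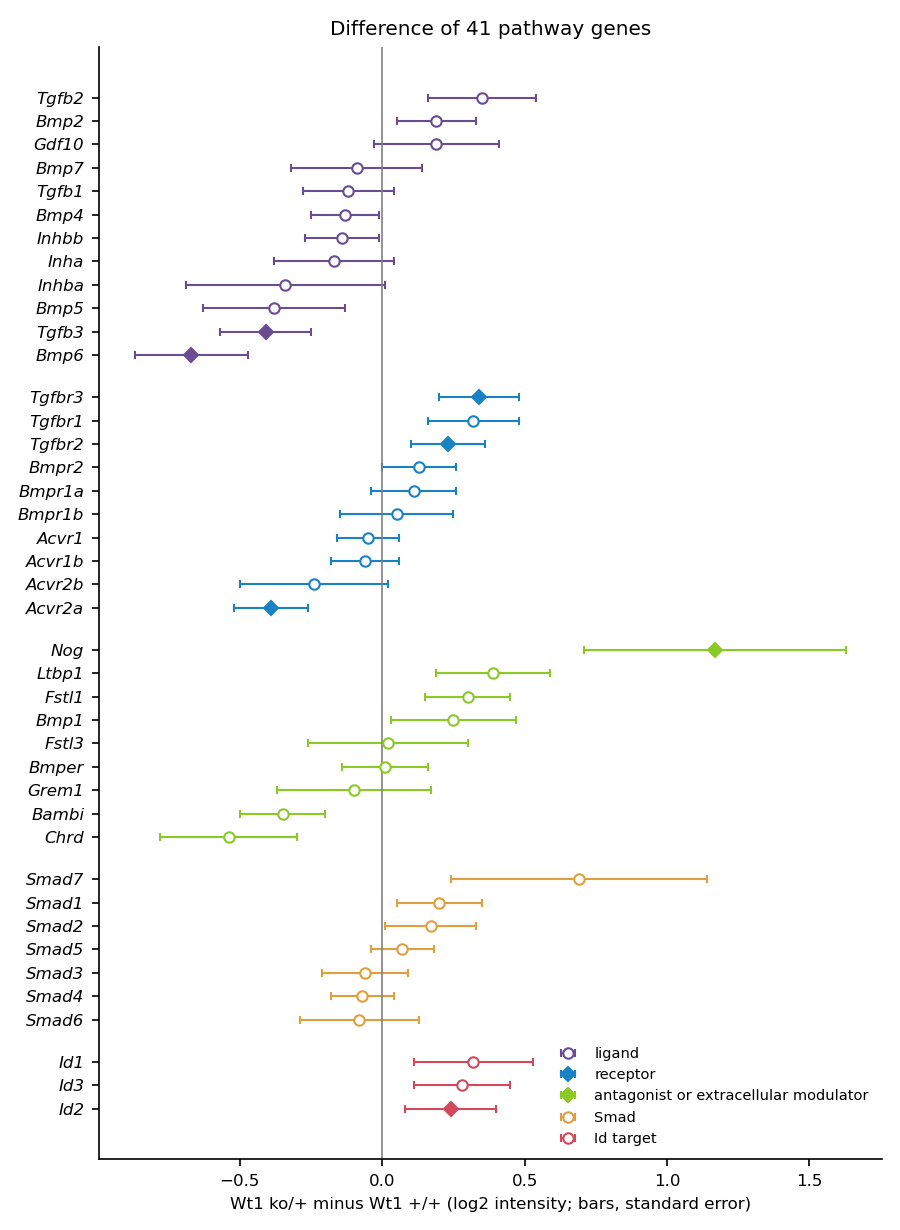
Log2 difference, heterozygous (Wt1 ko/+) minus wild type (Wt1 +/+), of the 41 measured genes, grouped by role; bars are the moderated standard errors of limma, and filled diamonds mark genes whose 3 heterozygous and 3 wild-type values do not overlap. Differences run from -0.67 for Bmp6 to 1.17 for Nog, and 7 genes carry diamonds.

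Of the 12 measured ligand genes 9 were below 0 and 3 above it, with a median difference of -0.14. Wild-type replicate 3, the array of highest Actb ratio, moves this count. Without it Bmp7 stood at 0.02 and Inha at 0.01, both above 0. Tgfb1 at -0.01 and Inhba at -0.05 stayed below 0, and the other ligands kept their signs. With each gene set against its mean over the 6 arrays, the median of the ligands was 0.27 in that array and between -0.07 and 0.05 in the others. Bmp6, a BMP ligand, had log2 intensities of 6.66, 6.88 and 6.90 in heterozygous replicates 1, 2 and 3, and 7.11, 7.57 and 7.78 in wild-type replicates 1, 2 and 3. Every heterozygous array lay below every wild-type array. The means were 6.81 ± 0.13 in heterozygous and 7.48 ± 0.35 in wild-type oviducts (SD, n = 3 each), a difference of -0.67 (standard error 0.20, 1.59-fold lower, adjusted p = 0.655 with limma). The means lay on either side of the median of all probe sets, 7.28. An exact permutation test of 3 arrays against 3 cannot go below p = 0.1, the value that Bmp6 gave.

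Tgfb3, a TGF-beta ligand, had 10.30, 9.94 and 9.87 in heterozygous replicates 1, 2 and 3, and 10.35, 10.46 and 10.53 in wild-type replicates 1, 2 and 3. The groups did not overlap, but heterozygous replicate 1 and wild-type replicate 1 lay next to each other. The means were 10.04 ± 0.23 in heterozygous and 10.45 ± 0.09 in wild-type oviducts (SD, n = 3 each), a difference of -0.41 (standard error 0.16, adjusted p = 0.748 with limma). The other TGF-beta ligands overlapped between the genotypes: the difference was 0.35 for Tgfb2, where all 4 probe sets were above 0, and -0.12 for Tgfb1, where both were below it.

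Of the remaining BMP ligands Bmp5 stood at -0.38, Bmp4 at -0.13, Bmp7 at -0.09 and Bmp2 at 0.19, each with overlap. The probe sets of Bmp5 did not point one way: its others gave 0.74 and 0.06. Nor did those of Bmp7, whose others gave -0.14 and 0.43. Gdf10, a relative of Bmp3, stood at 0.19. The inhibin and activin subunits stood, in differences no larger than their standard errors for Inha and Inhba, at -0.17 for Inha, which makes inhibin with a beta subunit, -0.34 for Inhba and -0.14 for Inhbb, the beta subunits that form activins. Inhbb varied little among heterozygous arrays, at 9.59 ± 0.04 there and 9.73 ± 0.16 in wild-type arrays (SD, n = 3 each), with an adjusted p of 0.904 in limma. The other Inhbb probe set, with a mean of 8.29, gave 0.13, so its probe sets did not point one way either.

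The 10 receptor genes all had means above the median of all probe sets, and 6 were above 0 and 4 below it in the comparison, with a median of 0.08. Acvr2a, the type II receptor for activins, had 10.30, 10.35 and 10.50 in heterozygous replicates 1, 2 and 3, and 10.91, 10.67 and 10.74 in wild-type replicates 1, 2 and 3. All heterozygous values were lower, with a difference of -0.39 (standard error 0.13, 1.31-fold lower, adjusted p = 0.691 with limma). Its other probe set gave -0.29 (standard error 0.22), also without overlap. There, heterozygous replicate 1, at 7.99, lay next to wild-type replicates 2 and 3, and only wild-type replicate 1, at 8.68, stood clear of the heterozygous arrays. Acvr2a lies on chromosome 2 in the RefSeq annotation, the chromosome that carries Wt1, as do 5 other genes of the family. These are the type I receptor Acvr1 at -0.05, the antagonist Grem1 at -0.10, the ligands Bmp2 at 0.19 and Bmp7 at -0.09, and Id1 at 0.32, so they lay on both sides of 0. Other probe sets of Acvr1 gave 0.34 and 0.11.

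Tgfbr3, or betaglycan, the coreceptor that presents TGF-beta ligands, had 12.29, 12.33 and 12.00 in heterozygous replicates 1, 2 and 3, and 11.95, 11.77 and 11.87 in wild-type replicates 1, 2 and 3. The groups did not overlap, and heterozygous replicate 3 lay nearest to the wild-type arrays. The difference was 0.34 (standard error 0.14, 1.27-fold higher, adjusted p = 0.782 with limma), and the other probe set gave 0.48 with overlap.

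Tgfbr2, the type II receptor for TGF-beta, had 12.12, 12.24 and 12.10 in heterozygous replicates 1, 2 and 3 at its brightest probe set, and 12.01, 12.03 and 11.75 in wild-type replicates 1, 2 and 3. This probe set was higher in every heterozygous array, by 0.23 (standard error 0.13, adjusted p = 0.859 over genes, limma). A dim probe set of Tgfbr2 went the other way. It had 3.59, 4.51 and 3.73 in heterozygous replicates 1, 2 and 3, against 5.03, 5.62 and 5.90 in wild-type replicates 1, 2 and 3, a difference of -1.57 (standard error 0.34, adjusted p = 0.678 over probe sets, limma), and did not overlap either. The remaining probe set gave 0.96 with a standard error of 1.58. Averaged over its 3 probe sets, the gene Tgfbr2 stood at -0.13, so the direction of this gene depends on the probe set.

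Tgfbr1, the type I receptor for TGF-beta, stood at 0.32 with overlap. Its dimmer probe sets stood at 0.85 (standard error 0.51) and 1.33 (standard error 1.19), also with overlap. The wild-type values of the last were 7.86, 5.58 and 3.09 in replicates 1, 2 and 3, and replicate 1 was the highest of all arrays. Of the BMP receptors Bmpr1a stood at 0.11, Bmpr1b at 0.05 and Bmpr2 at 0.13 at their brightest probe sets, all with overlap between the genotypes. Another Bmpr2 probe set was at -0.39 without overlap (standard error 0.20, adjusted p = 0.933 over probe sets, limma), and averaged over its probe sets the gene stood at -0.02. Bmpr1b stood at -0.16 without wild-type replicate 3. The activin type I receptor Acvr1b stood at -0.06 and the second activin type II receptor Acvr2b at -0.24, or 0.01 without wild-type replicate 3.

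**Figure D2:**
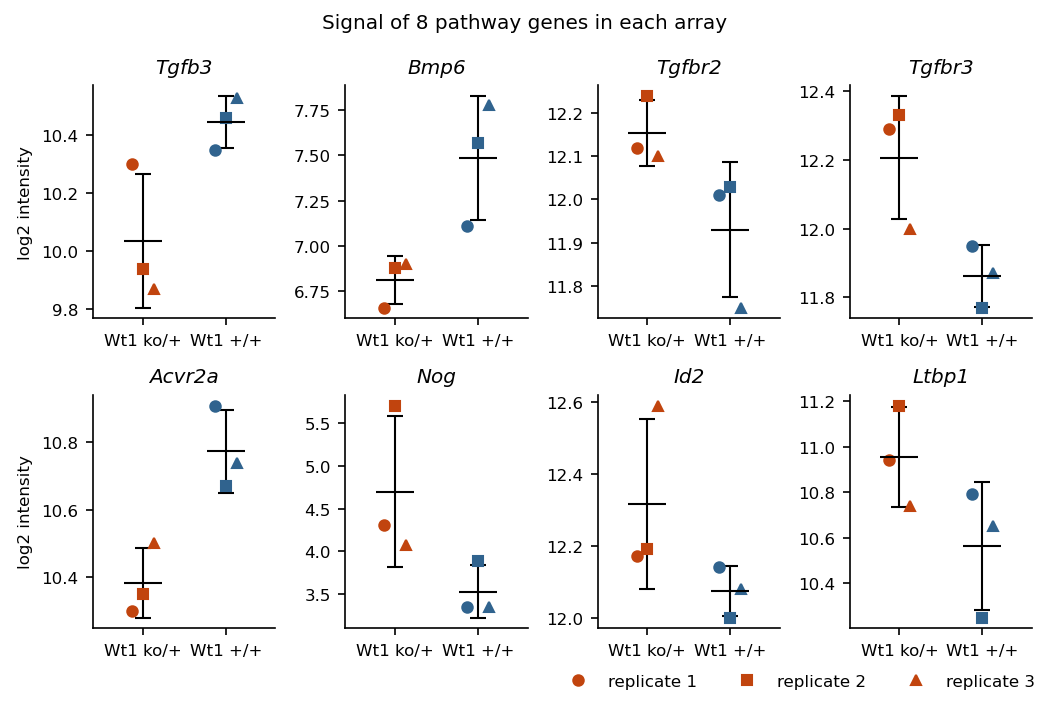
Normalised log2 intensity of 8 genes in each array, with heterozygous (Wt1 ko/+) samples left of wild-type (Wt1 +/+) samples; symbols mark the replicate, and the horizontal line and bar give the mean and SD of 3 arrays. Tgfb3, Bmp6 and Acvr2a lie lower and Tgfbr2, Tgfbr3, Nog and Id2 higher in every heterozygous array, while the groups of Ltbp1 overlap; each panel has its own scale.

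Of the 9 antagonists and extracellular modulators 6 were above 0 and 3 below it, with a median of 0.02. Nog encodes noggin, which binds BMPs and keeps them from their receptors. It had 4.31, 5.71 and 4.07 in heterozygous replicates 1, 2 and 3, against 3.35, 3.88 and 3.35 in wild-type replicates 1, 2 and 3. Heterozygous replicate 2 was far above all other arrays, and heterozygous replicate 3 lay only just above wild-type replicate 2. The difference of 1.17 (standard error 0.46, adjusted p = 0.748 with limma) was measured in a dim range, well under the 7.28 of the middle probe set, and whether so dim a probe set rises above background is unknown here. It was 0.66 without heterozygous replicate 2 and 0.64 with log2 of the intensity plus 16.

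Ltbp1, which holds latent TGF-beta in the matrix, had 10.94, 11.18 and 10.74 in heterozygous replicates 1, 2 and 3, and 10.79, 10.25 and 10.65 in wild-type replicates 1, 2 and 3, a difference of 0.39 with overlap (standard error 0.20, adjusted p = 0.830 with limma). All 3 of its probe sets were above 0, and 1 of them, at 0.56, did not overlap (adjusted p = 0.933 over probe sets, limma). Fstl1, a secreted glycoprotein that binds BMP4, stood at 0.30 at each of its probe sets. Bmp1, a metalloprotease that cuts chordin and procollagen and is no BMP ligand, stood at 0.25.

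Chrd, or chordin, was 7.12 ± 0.33 in heterozygous and 7.67 ± 0.32 in wild-type oviducts (SD, n = 3 each), a difference of -0.54 with overlap (adjusted p = 0.805, limma). Bambi, a receptor-like protein without a kinase that dampens signalling, was 10.05 ± 0.15 and 10.39 ± 0.18 in heterozygous and wild-type oviducts (SD, n = 3 each), a difference of -0.35 with overlap (adjusted p = 0.805, limma). Fstl3, which binds activin, and Bmper, which binds BMPs, stood at 0.02 and 0.01. The antagonists thus showed no common direction, with noggin and chordin on opposite sides of 0.

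Apart from Smad7, no Smad gene of the family differed by more than 0.20 in size at its brightest probe set. Of the Smads that receptors activate, Smad1 stood at 0.20, Smad2 at 0.17, Smad5 at 0.07 and Smad3 at -0.06, and their common partner Smad4 at -0.07; all overlapped between the genotypes. Smad4 was 11.94 ± 0.04 in heterozygous and 12.02 ± 0.06 in wild-type oviducts (SD, n = 3 each), and its probe sets gave -0.07, -0.09 and 0.19, the last without overlap (adjusted p = 0.933 over probe sets, limma). The inhibitory Smad6 stood at -0.08.

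The inhibitory Smad7 gave 0.69 at its brightest probe set (standard error 0.45, adjusted p = 0.880, limma), with 9.75, 8.11 and 9.62 in heterozygous replicates 1, 2 and 3, against 8.54, 8.34 and 8.52 in wild-type replicates 1, 2 and 3. Heterozygous replicate 2 lay below all wild-type arrays, and the other heterozygous arrays above them. The second Smad7 probe set, with 8.84 ± 0.09 in heterozygous and 8.77 ± 0.10 in wild-type oviducts (SD, n = 3 each), gave 0.07. The first carries a suffix that marks possible cross-hybridization, and without such probe sets Smad7 stood at 0.07.

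All 3 Id genes were above 0. Id2, a dominant inhibitor of basic helix-loop-helix factors, had 12.17, 12.19 and 12.59 in heterozygous replicates 1, 2 and 3, and 12.14, 12.00 and 12.08 in wild-type replicates 1, 2 and 3. The groups did not overlap, but heterozygous replicate 3 alone stood clear of the wild-type arrays. The difference was 0.24 (standard error 0.16, adjusted p = 0.880 with limma), and 0.10 without that array. The other probe sets gave 0.42 and 0.19, both with overlap. In both of them heterozygous replicate 3 was the lowest of all arrays, at 9.74 and 7.26. Heterozygous replicates 1 and 2 lay above every wild-type array there, so the Id2 probe sets disagreed on heterozygous replicate 3. Id1 was 10.60 ± 0.30 in heterozygous and 10.28 ± 0.24 in wild-type oviducts, and Id3 10.42 ± 0.08 and 10.13 ± 0.26 in the same order of genotypes (SD, n = 3 each), with overlap in both. Their differences were 0.32 and 0.28, with adjusted p of 0.880 and 0.859 in limma.

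Probe sets of a gene agreed in direction in 14 of the 26 genes that had several, with all higher in 10 and all lower in 4. Over the 88 probe sets, 2 were higher at an unadjusted p under 0.05, against 2.25% of all probe sets, and 3 were lower, against 2.93%. Without overlap, 6 were higher, against 4.67% of all probe sets, and 6 lower, against 5.87%. Those higher at an unadjusted p under 0.05 belonged to Nog and Ltbp1, and those lower to Tgfbr2, Bmp6 and Acvr2a. Without overlap, the higher ones belonged to Nog, Ltbp1, Tgfbr2, Tgfbr3, Smad4 and Id2, and the lower ones to Tgfbr2, Bmp6, Acvr2a, Tgfb3 and Bmpr2. The widest differences lay among dim probe sets.

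**Figure D3:**
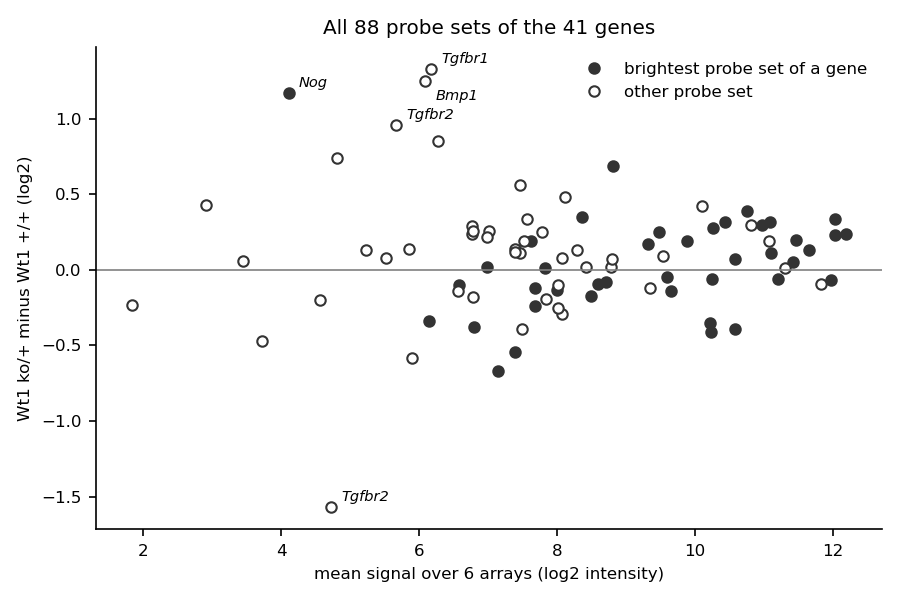
Log2 difference, heterozygous minus wild type, of each of the 88 probe sets of the 41 genes against its mean log2 intensity over 6 arrays; filled circles are the brightest probe set of a gene and open circles its others. Dim probe sets spread from -1.57 (Tgfbr2) to 1.33 (Tgfbr1).

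Sequences upstream of the genes are shown for 4 of the 7 genes without overlap between the genotypes, those with a window in the RefSeq promoter table (build GRCm38.p6): the 250 bases before the annotated start, 5′ to 3′ on the gene's strand. The windows are chr13:38345466-38345715 on the + strand for Bmp6, chr2:48813859-48814108 on the + strand for Acvr2a, chr9:116175364-116175613 on the - strand for Tgfbr2 and chr12:25096093-25096342 on the - strand for Id2. Capitals mark matches on either strand to CAGAC, the core of the Smad binding element, to GGCGCC, a GC-rich site of BMP-activated Smads that is its own reverse complement, and to GCGNGGGNG, where N is any base, which covers sites of Wt1 and of the EGR factors that bind like letters. No matches overlap in these windows.
Bmp6: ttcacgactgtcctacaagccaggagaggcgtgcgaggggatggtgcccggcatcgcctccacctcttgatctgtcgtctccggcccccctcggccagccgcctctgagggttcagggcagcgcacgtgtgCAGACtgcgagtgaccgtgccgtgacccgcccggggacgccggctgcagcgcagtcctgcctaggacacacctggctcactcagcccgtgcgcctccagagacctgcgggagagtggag
Acvr2a: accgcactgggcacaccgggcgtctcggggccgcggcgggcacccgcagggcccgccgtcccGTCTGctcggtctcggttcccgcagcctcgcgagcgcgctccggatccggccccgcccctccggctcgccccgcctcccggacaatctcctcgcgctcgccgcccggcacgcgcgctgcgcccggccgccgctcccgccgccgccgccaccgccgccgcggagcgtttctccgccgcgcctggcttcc
Tgfbr2: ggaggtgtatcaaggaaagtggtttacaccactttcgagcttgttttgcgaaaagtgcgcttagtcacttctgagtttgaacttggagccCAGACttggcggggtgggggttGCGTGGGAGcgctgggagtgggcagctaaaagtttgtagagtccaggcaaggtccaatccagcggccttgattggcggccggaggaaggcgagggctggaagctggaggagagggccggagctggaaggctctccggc
Id2: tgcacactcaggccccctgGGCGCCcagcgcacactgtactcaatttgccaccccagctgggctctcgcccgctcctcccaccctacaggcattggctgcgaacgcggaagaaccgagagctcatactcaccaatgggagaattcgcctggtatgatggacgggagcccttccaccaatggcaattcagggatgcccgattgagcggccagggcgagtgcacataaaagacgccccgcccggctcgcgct
Bmp6 and Acvr2a each held 1 CAGAC match, and Id2 held 1 GGCGCC match. Tgfbr2 held 1 CAGAC match and 1 match to the Wt1 and EGR letters. Of the 43 listed genes 31 matched the table, with 38 windows, and 34.2% of these windows held the Wt1 and EGR letters, against 10.5% of 32851 windows of all genes. GGCGCC stood in 18.4% against 9.59%, and CAGAC in 50% against 42.2%. The windows of the family were richer in G and C, at a median of 65.2% against 52.4%, and these matches describe letters, not binding.

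The other genes of the pathway came from lists of 92 genes, of which 84 were measured. None passed over all genes (limma); at an unadjusted p under 0.05, 5 were higher and 7 lower, against 2.67% and 3.77% of all genes, and without overlap 9 were higher and 9 lower, against 5% and 6.77% of all genes. The median difference was 0.02. By role it was -0.23 for 15 other ligands, -0.21 for 10 other receptors and coreceptors, 0.19 for 26 other binding and activating proteins, 0.03 for 15 transducers and 0.05 for 20 genes known to be induced by the pathway, where a gene on more than 1 list counts in each.

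Of the induced genes, Ccn2, or connective tissue growth factor, had 11.36, 10.76 and 11.05 in heterozygous replicates 1, 2 and 3, and 10.15, 10.08 and 10.20 in wild-type replicates 1, 2 and 3. Each heterozygous array was well above all wild-type arrays. The difference was 0.91 (standard error 0.18, 1.88-fold higher, adjusted p = 0.485 with limma), and it was 0.94 without wild-type replicate 3. Postn, a matrix protein, stood at 0.67 without overlap (adjusted p = 0.660, limma).

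The cell cycle inhibitors Cdkn2b and Cdkn1a, which TGF-beta induces in epithelial cells, were on the other side. Cdkn2b had 9.04, 9.16 and 9.58 in heterozygous replicates 1, 2 and 3, and 9.76, 9.97 and 9.88 in wild-type replicates 1, 2 and 3, a difference of -0.61 (adjusted p = 0.610, limma). Cdkn1a stood at -0.62 without overlap (adjusted p = 0.681, limma). Tgfbi and Id4, both bright, stood at -0.13 with overlap and at 0.09 without overlap. Of the 20 induced genes measured, 12 were above 0 and 8 below it. Without overlap 5 were higher and 2 lower, against 5% and 6.77% of all genes. Genes induced by the pathway thus lay on both sides of 0.

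Among binding and activating proteins, Chrdl2, a chordin-like antagonist, had 7.87, 8.25 and 7.91 in heterozygous replicates 1, 2 and 3, and 8.97, 8.90 and 8.57 in wild-type replicates 1, 2 and 3. All heterozygous arrays were lower, and the difference for Chrdl2 was -0.80 (standard error 0.18, 1.74-fold lower, adjusted p = 0.503 with limma). Ltbp2, a microfibril protein related to Ltbp1, was 7.46 ± 0.01 in heterozygous and 8.24 ± 0.29 in wild-type oviducts (SD, n = 3 each), a difference of -0.78 without overlap (adjusted p = 0.503, limma). It was -0.61 without wild-type replicate 3.

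Itgb8, the integrin subunit that helps to release active TGF-beta from its latent form, had 9.03, 9.28 and 9.42 in heterozygous replicates 1, 2 and 3, and 10.03, 9.73 and 9.85 in wild-type replicates 1, 2 and 3. Its difference was -0.63 without overlap (adjusted p = 0.542, limma). Fst, or follistatin, which neutralises activins, was 7.95 ± 0.06 in heterozygous and 7.40 ± 0.24 in wild-type oviducts (SD, n = 3 each), a difference of 0.56 without overlap (adjusted p = 0.610, limma). Fstl4 stood at 1.12 and Tmeff2, a membrane protein with follistatin domains, at 0.41, both without overlap and with adjusted p of 0.720 and 0.748 (limma). Fstl4 was dim, at a mean of 5.01, and stood at 0.70 without wild-type replicate 3, at 0.72 with log2 of the intensity plus 16 and at 0.66 with the Actb ratio as covariate.

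Amhr2, the receptor of anti-Müllerian hormone, had 7.24, 7.06 and 7.64 in heterozygous replicates 1, 2 and 3, and 7.54, 8.27 and 8.19 in wild-type replicates 1, 2 and 3. The groups overlapped through wild-type replicate 1, and the difference was -0.69 (adjusted p = 0.745, limma). This probe set carries the suffix that marks possible cross-hybridization, and Amhr2 stood at -0.23 without such probe sets and at -1.47 averaged over its 3 probe sets. Cfc1, a Nodal coreceptor, stood at -0.46 without overlap (adjusted p = 0.691, limma). Of the endothelial receptors Acvrl1 stood at -0.19 and Eng at 0.12, and of the ligands known from the ovary Amh stood at -0.39, Gdf9 at -0.36 and Bmp15 at -0.33, all with overlap. Smad9, at -0.09, was dim and varied widely, with a standard error of 0.77.

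**Figure D4:**
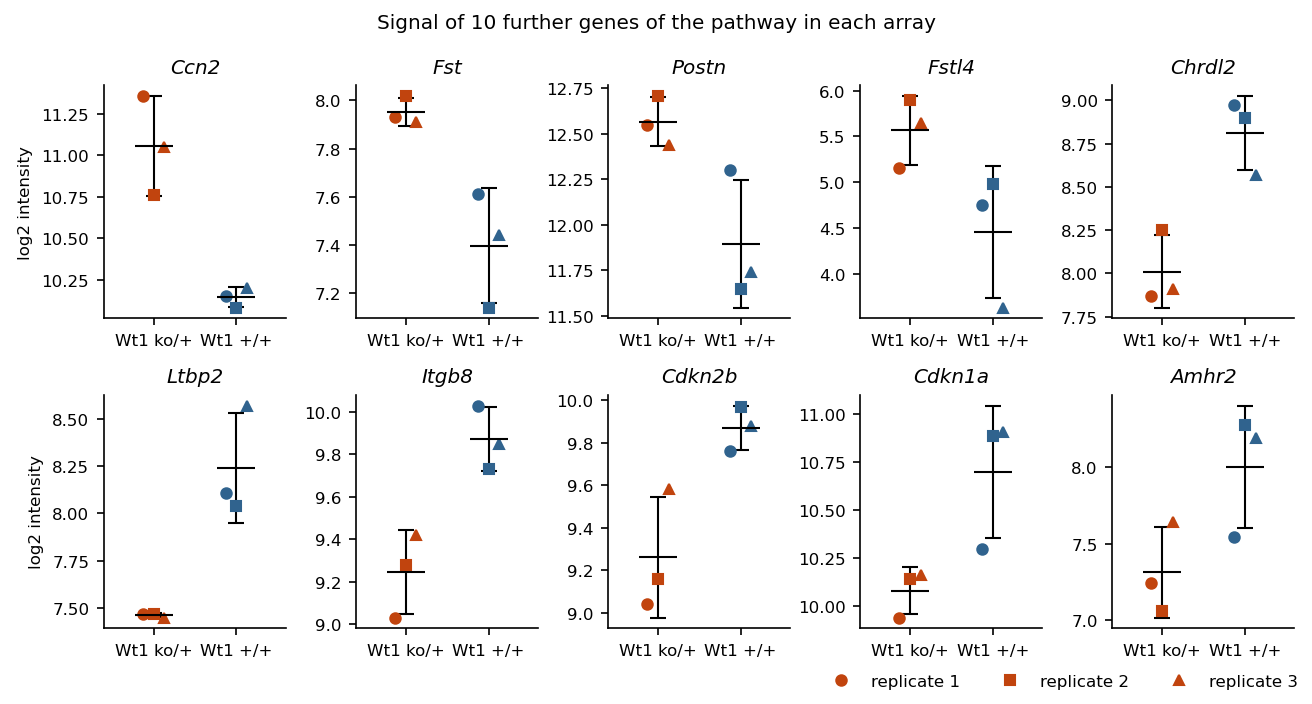
Normalised log2 intensity of 10 further genes of the pathway in each array, heterozygous (Wt1 ko/+) left of wild type (Wt1 +/+), with the mean and SD of 3 arrays; symbols mark the replicate. Ccn2, Fst, Postn and Fstl4 lie higher and Chrdl2, Ltbp2, Itgb8, Cdkn2b and Cdkn1a lower in every heterozygous array, and the groups of Amhr2 overlap.

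No cell type marker passed the adjusted threshold (limma), but summed intensities of several lists did not overlap between the genotypes. All 5 smooth muscle markers were above 0 (3 at an unadjusted p under 0.05, against 2.67% of all genes), and their summed intensity ranged from 24310 to 33752 in heterozygous and from 21058 to 23599 in wild-type arrays. All 6 stromal markers were above 0, with sums from 32975 to 38282 in heterozygous and from 29908 to 32610 in wild-type arrays. The 5 endothelial markers were also all above 0, with sums from 2093 to 2652 in heterozygous and from 1704 to 2009 in wild-type arrays. Taken singly, only Tcf21 (0.68) among the stromal and Pecam1 (0.83) among the endothelial markers did not overlap between the genotypes. All 3 adipocyte markers were above 0, with sums from 335 to 617 in heterozygous and from 129 to 174 in wild-type arrays. Uterine gland markers, of which 3 of 4 had a difference above 0, summed to between 2336 and 2669 in heterozygous and between 1255 and 1751 in wild-type arrays. Among these Cxcl15 differed most, at 2.50, with Prss28 at 1.63, Prss29 at 0.65 and Foxa2 at -0.06. Cumulus markers, of which 1 of 3 had a difference above 0, summed to between 366 and 372 in heterozygous and between 268 and 286 in wild-type arrays. That 1 gene was Tnfaip6, at 0.96, while Ptx3 and Has2 stood at -0.26 and -0.23. The 4 ciliated cell markers, 3 of them below 0, summed to between 7193 and 8180 in heterozygous and between 8262 and 9073 in wild-type arrays. Foxj1, at -0.31, was the only one of them without overlap. Tekt1 stood at -0.18, Rsph1 at -0.08 and Dnah5 at 0.72. Sums overlapped between the genotypes for secretory epithelium, mesothelium, leukocytes, the 5 measured ovarian markers and the 6 oocyte or embryo markers. After normalization no marker was at the intensity floor in any array. The adipocyte marker Cidec came near it, at a log2 intensity of 0.22 in wild-type replicate 2. Its difference was 1.26 with overlap (standard error 1.15). Some markers are also on the pathway lists: Acta2, Col1a1 and Col3a1 as induced genes, Dcn as a binding protein, and Gdf9 and Bmp15 as ligands. The part of these marker shifts in the differences above was not tested.

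The 3 arrays of higher 3' to 5' ratio (1 heterozygous, 2 wild type) and the 3 of lower ratio (2 heterozygous, 1 wild type) were also compared within each class, where 1 genotype has a single array. For genes without overlap the sign is fixed by the absence of overlap, so the sizes alone are given. The differences were -1.02 and -0.21 for Bmp6, -0.19 and -0.45 for Tgfb3, -0.41 and -0.48 for Acvr2a, and 0.69 and 1.54 for Nog, in the arrays of higher and lower ratio. They were 0.47 and 0.22 for Tgfbr3, 0.23 and 0.16 for Tgfbr2, 0.13 and 0.24 for Id2, and 1.21 and 0.75 for Ccn2. Without wild-type replicate 3, Bmp6 stood at -0.52, Tgfb3 at -0.37, Acvr2a at -0.41, Nog at 1.08 and Tgfbr2 at 0.14.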

How the data were processed

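RNA from the oviducts was labelled with biotin from 1 µg of total RNA and hybridised to 1 array per sample, per the labels. Per probe set and array, the authors deposited a linear intensity, scaled so that the mean after removing 2% at each end was 500.002 on all 6 arrays, as found from the values; no source used here names the summarising program. After leaving out 64 control probe sets, intensities under 1 were set to 1, log2 transformed and quantile normalized, since the medians of the arrays spanned 0.147 (log2). Of 45037 probe sets 34945 had 1 gene symbol, 932 several and 9160 none listed. Differences were fitted with limma 3.58.1 in R 4.3.3 over all 18193 genes, each by its brightest probe set, and over all probe sets, two-sided, with Benjamini-Hochberg adjustment at 0.05. Exact permutation tests were two-sided over 20 assignments. The scripts were tested on simulated data. No detection calls were used, and the number of arrays limits the precision.

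The 43 genes and all lists, tests and alternatives were chosen with earlier results of these data known. Values in every array were given for genes with an unadjusted p under 0.05, no overlap, or disagreeing probe sets of which 1 had such a p, and for the 3 brightest; Smad7 and Ltbp1 were added after their values were seen. Of the other pathway genes, those at an unadjusted p under 0.05 were named, up to 6 per direction, with a fixed set of others, not all of which are reported here. Older symbols were updated through the RefSeq gene table. Alternatives tried were: no quantile normalization, leaving out dim genes, another variance model (trend and robust), weighted arrays, a replicate block, each array left out in turn, the mean of all probe sets or only those free of cross-hybridization, log2 of the intensity plus 16, and the Actb 3' to 5' ratio as covariate or block.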

Additional observations from a re-analysis of the deposited data

How the results depend on the processing

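No listed gene passed the adjusted threshold under any of the 16 alternatives, and at an unadjusted p under 0.05 there were 1 higher and 3 lower with limma. The signs of 24 of the 41 genes held under each alternative that kept the gene, and those of 17 changed under at least 1. Of the genes whose difference exceeded its standard error, a bound chosen after the values were seen, Tgfbr2 (-0.13) and Bmp5 (0.14) changed sign, both where all probe sets of a gene were averaged; the cause was not tested. Over all genes, 3 passed. This count was 6 after dim genes were left out, 1 under the trend and robust variance model, 7 with weighted arrays, and 0 under the replicate block, without probe sets open to cross-hybridization and with the Actb ratio as covariate or block, where 976, 1129, 1114 and 1171 genes had an unadjusted p under 0.05. Leaving out any array gave 0 to 0 genes, with 843 to 1907 at an unadjusted p under 0.05. Listed genes higher at an unadjusted p under 0.05 numbered 3 under trend and robust, 6 with weighted arrays, 2 with the Actb classes as a block and 0 to 2 without 1 array. Those lower numbered 5 after dim genes were left out and 5 with weighted arrays, and 1 to 3 without 1 array. Over all genes, 2539 had such a p with weighted arrays, 1253 under trend and robust, and 992 of 12029 after dim genes were left out, against 1171 of 18193 as reported. Genes without overlap numbered 5 to 10 higher and 3 to 7 lower without 1 array, where 2 arrays stand against 3 and 17.6% to 32% of all genes did not overlap. The median over the listed genes was 0.06 where dim genes were left out, which kept 36 of them, and 0.00 to 0.08 without 1 array.

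Same-numbered heterozygous and wild-type samples did not deviate together (correlations across genes of -0.10, -0.03 and -0.08). With so few arrays per genotype, such small correlations cannot exclude a pairing, so whether the numbers pair the samples is unknown. The replicate block gave 1 listed gene higher and 2 lower at an unadjusted p under 0.05, and no listed gene passed.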
